A study of Homo sapiens with 34 samples.

Results

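The ecSE1 perturbation of PC3 DM cells was compared with the empty-vector control by CUT&Tag for methylated H3K9. Libraries were taken by their titles: 3 of ecSE1 and 2 of the vector, out of 16 PC3 DM libraries and 34 in the series. CUT&Tag brings a transposase to chromatin that an antibody has bound, and the labels call this rabbit antibody anti-H3K9me, with no degree of methylation. PC3 DM is a prostatic adenocarcinoma line that carries the oncogene MYC on extrachromosomal DNA (ecDNA), circles derived from chromosome 8. In both groups cells received 700 ng of sgRNA plasmid with lipofectamine LTX and were collected after 3 days, and each library was made from 50000 nuclei. The series describes these plasmids as CRISPR-based epigenomic perturbations, and the treatment label of the first group is ecSE1-perturbation. The labels name neither the protein that the guide brings nor the position of the element in the genome, and they refer to lines derived from PC3 DM without describing them. For comparison there were 8 libraries of other single plasmids (3 of ecSE2, 3 of ecSE6 and 2 of ecSE7) and 3 of a combination whose content is not stated.

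Methylation of H3K9 is a mark of silent chromatin. It is laid down at repeats, at clustered zinc-finger genes and at sites to which KRAB repressors bring a methyltransferase, and it is bound by HP1 proteins, which help it to extend into flanking nucleosomes. CRISPR-based silencing of an enhancer commonly uses a catalytically dead Cas9 that carries such a repressor, and leaves a local domain of this mark around the guide's target. On ecDNA, enhancers sit beside amplified oncogenes in many copies. A super-enhancer is a dense cluster of such enhancers.

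The vector lists held 18547 and 55454 peaks on the autosomes and X, and the ecSE1 lists 53747, 10288 and 58545. The log10 number did not differ beyond the spread (difference -0.00271, exact permutation p = 1, two-sided). With 3 libraries against 2, no p under 0.2 can arise. To allow for length, each list was cut to its top 10288 peaks, ranked on q-value with ties broken on fold. These are called best peaks. Peaks were weakly shared: ecSE1 pairs had 3.00 to 5.32% of the 1 kb bins covered by either list in common, the vector pair had 6.85%, and pairs across the groups had 3.19 to 9.67%. Vector replicate 1 stood apart by its wide peaks (median 371 bp against 180 to 228 bp in the other 4 lists), so the main ratio is also given without it. No label states that the libraries of a group are from separate cultures. The p-values therefore rest on a spread between libraries that may be technical. As a check of the line, 7 genes listed for the other cell line of the series were looked up, and 1 or 2 of the 7 had a peak in each of the 5 lists. LGR5 had one in both vector lists and in ecSE1 replicates 1 and 3. CDX1 had one in ecSE1 replicate 2 and VIL1 in vector replicate 2. CDX2, PDX1, KRT20 and POU5F1B had none in any list. A peak of this mark is not expression, and housekeeping genes had no best peak in any of the 5 lists either. The check therefore cannot identify the line.

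The peaks that stood out with ecSE1 lay in an intergenic stretch of chromosome 8 (hg38), inside the 50 kb interval from 133700000 to 133750000. A peak was already there with the vector, and with ecSE1 it was about 15.6 times as high. It ranked 2 in all 3 ecSE1 lists, against 1554 in vector replicate 1 and 477 in replicate 2. Its summits in the ecSE1 lists lay within 3 bases of each other, at 133727933, 133727934 and 133727936. The vector replicate 1 summit was at 133727934, and that of vector replicate 2 lay elsewhere in the peak, at 133728121.

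At the summit of this peak in each list, the numbers of fragments recovered from the deposited fold and p-value were 646, 1474 and 1063 with ecSE1. They were 113 and 69 with the vector. These counts are not scaled for depth. They were therefore divided by the lowest local background of the same list, the level at which the caller stops lowering its estimate, which is shared by 20.3 to 42.3% of the peaks of a PC3 DM list. On this scale, called height, the ecSE1 libraries stood at 3945, 6337 and 4879 and the vector libraries at 279 and 370. All ecSE1 libraries lay above both vector libraries, and the lowest ecSE1 value was 10.7 times the highest vector value. The means were 5054 ± 1206 (SD, n = 3) and 325 ± 64.7 (SD, n = 2), a ratio of 15.6. The ratio was 13.6 without vector replicate 1, 18.1 without vector replicate 2, and 13.6 to 17.3 with 1 ecSE1 library left out.

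The peak was also wider. It covered 1422, 1439 and 1507 bp with ecSE1 (1456 ± 45.0, n = 3) and 520 and 221 bp with the vector (371 ± 211, n = 2). Its fold over local background, the authors' value, did not separate the groups: 3.41, 3.22 and 3.54 with ecSE1 and 2.43 and 3.69 with the vector. The background around the peak was higher too. It is the divisor of that fold and, on the same scale as height, stood at 1153, 1968 and 1374 with ecSE1 and 113 and 96.5 with the vector, 14.3 times as high on average. In a ranking by fold, the best-ranked peak of the interval stood at 53698, 10204 and 58406 in the ecSE1 lists and at 17876 and 20872 in the vector lists, so the interval did not stand out in either group.

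**Figure D1:**
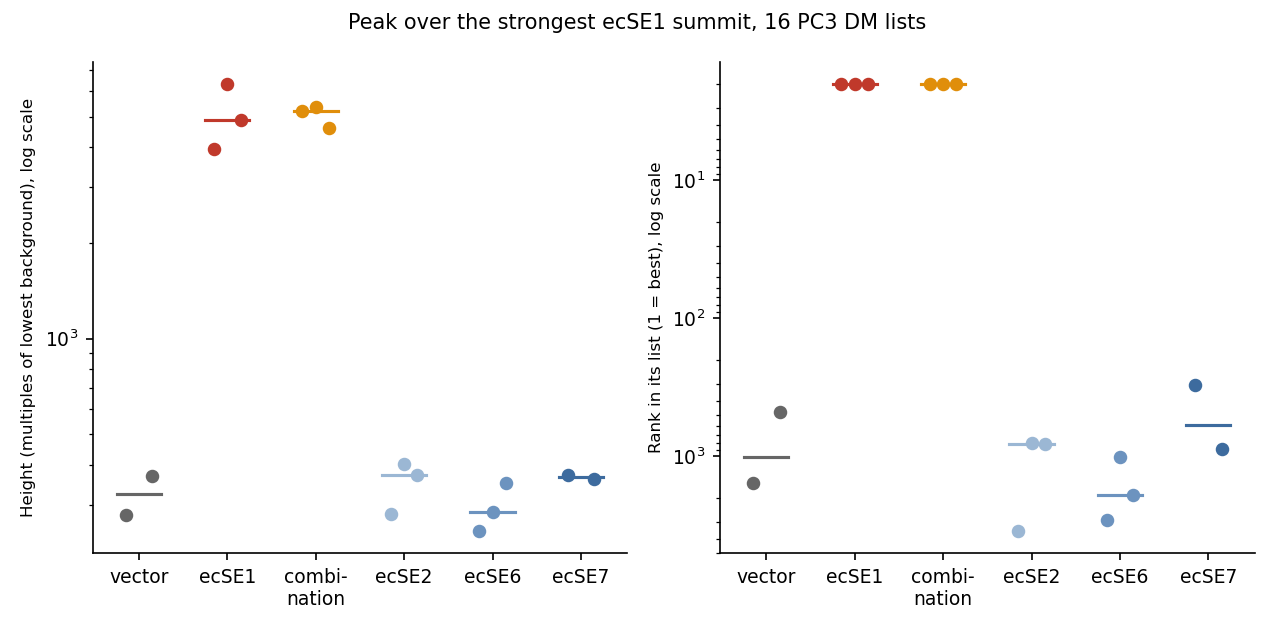
Height (left, multiples of the lowest local background, log scale) and rank (right, log scale with the best rank at the top) of the peak over the strongest ecSE1 summit in each of the 16 PC3 DM lists; points are libraries and bars are medians. The 3 ecSE1 and 3 combination libraries stand at 3945 to 6337 and rank 2, and the vector and other single plasmids at 248 to 402.

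The best peak anywhere in the interval ranked 2, 2 and 2 with ecSE1 and 78 and 32 with the vector, where it was another peak of the same interval (133729762 to 133730748 and 133736667 to 133736902). On the log10 scale the difference was -1.40 (exact permutation p = 0.2, two-sided, the smallest possible). With lists ranked and cut by fold it was -0.0012 (exact permutation p = 1), a value fixed by the cut. Only ecSE1 replicate 2 kept a peak of the interval, at rank 10204, and all other lists were set to the rank just past the cut. Before the cut the fold ranks of the groups overlapped, so the rank difference was seen by q-value and not by fold. Against all 10 lists of the vector, ecSE2, ecSE6 and ecSE7 it was -1.86 (exact permutation p = 0.00699, two-sided). The interval was chosen with this result known, so both p-values are descriptions. Of the 100 best peaks of a list, 6 lay in the interval in each ecSE1 library and 1 in each vector library. The other single plasmids had 0 to 2 and the combination 4 or 5.

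The combination libraries carried the same peak. Their heights were 5224, 5341 and 4585 (5050 ± 407, n = 3), inside the ecSE1 range, and the summit ranked 2 in all 3. The 8 libraries of ecSE2, ecSE6 and ecSE7 stood at 248 to 402, median 356, and overlapped the vector. The mean ecSE1 height was 15.1 times theirs. The labels do not say whether the combination includes the ecSE1 guide.

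The gain was a block of peaks rather than a single one. Peaks more than 2 times as high as the highest vector peak of the interval (440, so above 880) were counted, a limit chosen after the values were seen. The ecSE1 lists held 10 of 12, 9 of 12 and 8 of 10 such peaks in the interval. The vector lists held 0 of 7 and 0 of 10, counts fixed in advance because the limit was set from the vector heights. None of the 8 lists of other single plasmids held any. From the first to the last of them the block ran 15112, 13563 and 13249 bp with ecSE1 (14.0 ± 0.997 kb), starting between 133721735 and 133722039 and ending between 133735180 and 133736846. In the combination it was 12141, 10442 and 11930 bp (11.5 ± 0.926 kb), shorter than in every ecSE1 library. No test of that difference was made.

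Within the block the same secondary summits recurred. About 3.5 kb below the main summit, at 133724406 to 133724413, a peak ranked 5, 7 and 13 in the ecSE1 lists, with heights of 2254, 3440 and 2070. The 5 kb bin that holds it, 133720001 to 133725000, had the largest rank gain of the genome. Its best vector rank, 1361, was 105 times the worst ecSE1 rank, and vector replicate 2 had no best peak there. The next bins up, from 133725001 and from 133730001, had rank ratios of 39 and 7.8. Above the main summit, a peak over 133731793 to 133731898 ranked 10, 6 and 8, and a peak over 133733708 to 133733829 ranked 50, 12 and 22.

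**Figure D2:**
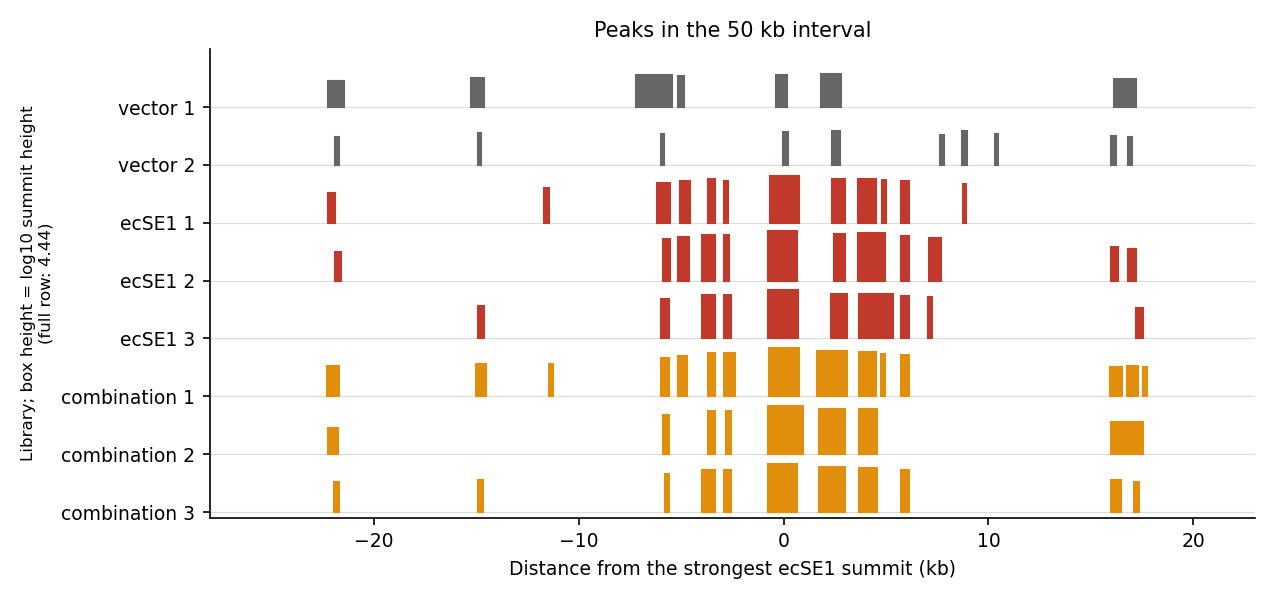
Peaks of the 50 kb interval in the 2 vector, 3 ecSE1 and 3 combination lists, by distance from the strongest ecSE1 summit (kb); box width is the peak and box height the log10 of its height, on rows that reach 4.44 when full. The boxes of ecSE1 and the combination with a height above 880 lie between about 6 kb below and 9 kb above the summit. No vector box exceeds a height of 440, a difference that the log scale makes look smaller.

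Height with ecSE1 fell with distance from the summit out to 25 kb. Within 2.5 kb the tallest peak was 14.7 times as high with ecSE1 as with the vector, from 2.5 to 5 kb 8.91 times (1 vector list had a peak there) and from 5 to 10 kb 5.92 times. From 10 to 25 kb the means were 370 ± 76.0 (n = 3) and 218 ± 63.8 (n = 2), a ratio of 1.70, and the lowest ecSE1 value, 294, was above the highest vector value, 263. From 25 to 50 kb the means were 387 and 254, a ratio of 1.52, so the ecSE1 mean did not fall further. The ecSE1 libraries there (354, 443 and 363) again lay above both vector libraries (266 and 241). From 50 to 100 kb the ecSE1 mean was lower than the vector mean, 246 ± 70.2 against 369 ± 61.9. These distances pool both sides. The tall peaks themselves reached about 6 kb below the summit and 9 kb above it.

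The local background under the listed peaks had the same shape. It was 1490 ± 432 with ecSE1 and 104 ± 13.6 with the vector within 2.5 kb, 865 ± 323 and 98.5 ± 22.2 from 5 to 10 kb, and 95.3 ± 19.9 and 41.7 ± 0.797 from 10 to 25 kb. Beyond 25 kb the ratio of the means was 1.29 and 1.30 out to 100 kb, and 1.41 from 250 to 500 kb. From 100 to 250 kb it was 0.259, and 1.34 without vector replicate 1, which stood at 13.0 there against 1.39 in replicate 2. The caller averages this background over neighbouring sequence, over lengths not given in the sources used here, so its edges are less sharp than those of height.

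**Figure D3:**
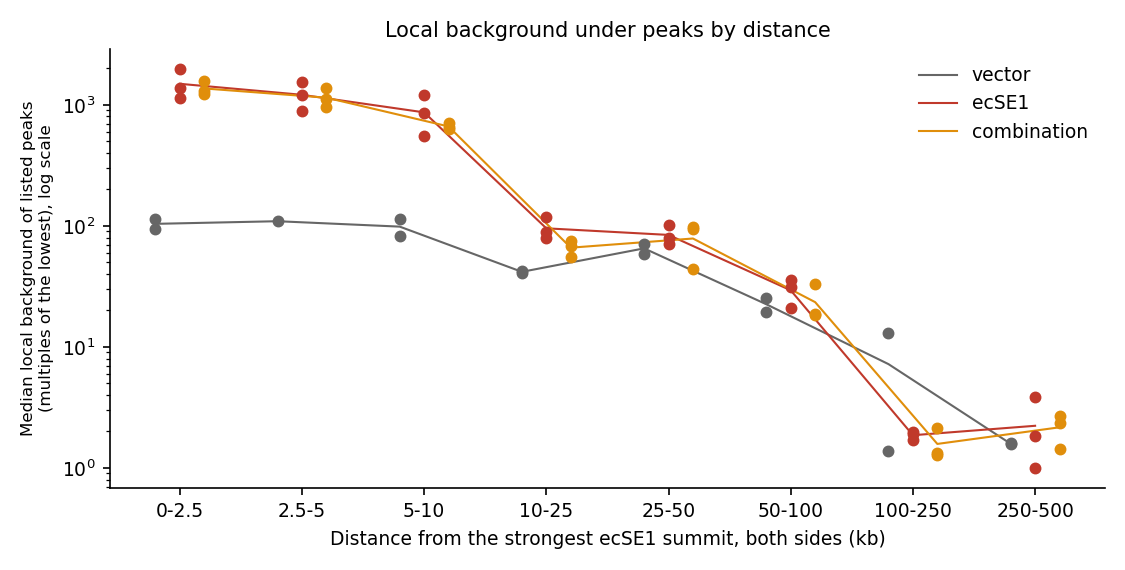
Median local background of the peaks listed at each distance from the strongest ecSE1 summit (kb, both sides), in multiples of the lowest background of the list, log scale; points are libraries and lines join group means. The ecSE1 and combination points lie above the vector points by 8.79 to 14.4 times (ecSE1) out to 10 kb and approach them beyond.

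Length covered by peaks gave a less clear picture than height. Within 2.5 to 5 kb of the summit the ecSE1 lists covered 55.5% ± 4.94 of the sequence and the vector lists 6.88% ± 3.14. The next counts were centred on the strongest gained site, at 133724412, which lies 3522 bp below the main summit. The central 5 kb left out there does not hold the main peak, so that peak is part of these lengths. Within 100 kb of the site, outside its central 5 kb, best peaks covered 5764, 8047 and 7039 bp with ecSE1 and 9033 and 3590 bp with the vector. The groups overlapped (difference 639 bp, exact permutation p = 0.8, two-sided). Centred on the main summit instead, the difference was 919 bp (exact permutation p = 0.8, two-sided). Within 10 kb of the gained site, the main peak included, the ecSE1 lists covered 3926, 3692 and 4334 bp. The vector lists covered 2683 and 590 bp there, with no overlap (difference 2348 bp, exact permutation p = 0.2, the smallest possible). That distance was chosen after the wider one had been seen. The wide peaks of vector replicate 1 move with its covered length, and their part in it was not tested.

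No gene lies under the block. The nearest entry of the RefSeq table (GRCh38.p14) is MTND2P7, a pseudogene of a mitochondrial gene, 26805 bp above the summit. Its surroundings carried peaks in all 5 lists (1255 ± 314 bp with ecSE1 and 1382 ± 301 bp with the vector). LINC03024, a long non-coding RNA gene 43868 bp below, was covered over 371 ± 217 bp and 378 ± 535 bp. ST3GAL1, which encodes a sialyltransferase, is the nearest of the protein-coding genes chosen for naming, 156047 bp below, and had no peak in any of the 5 lists. NDRG1, a stress-responsive gene 430682 bp below, had a 192 bp peak in ecSE1 replicate 1 alone. ZFAT, a zinc-finger gene 749854 bp above, was covered over 816 ± 575 bp with ecSE1 and 904 ± 192 bp with the vector.

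MYC lies 5984983 bp from the summit on the reference chromosome. Neither MYC nor the 2 kb on each side had a peak in any of the 5 lists. PVT1, the long non-coding RNA gene beside MYC, was covered over 661 ± 498 bp with ecSE1 and 691 ± 515 bp with the vector. Distances on the reference need not hold on ecDNA, whose segments can be joined in another order. The structure of these circles was not analysed here.

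Other bins that could be compared by height did not change by as much. In 585 bins of 5 kb that held a peak summit in all 5 lists, the median log2 ratio of mean heights, ecSE1 to vector, was 0.01. All ecSE1 heights were above all vector heights in 59 bins (10.1%), and the opposite held in 61 (10.4%). In 3 bins (0.513%) the lowest ecSE1 height was more than 4 times the highest vector height, and these were the 3 adjoining bins of the block, with log2 ratios of 3.30, 3.96 and 3.05. The next bin by that measure, in LOC105374786 on chromosome 2, had heights of 171, 172 and 165 against 93.8 and 102, so its lowest ecSE1 value was 1.62 times the highest vector value. The bin over MTND2P7, at 133755001 to 133760000, stood at 354, 443 and 363 against 266 and 241. Sites without a peak in every list are not among these bins, such as the tallest peak of most lists, over RNU6-1 on chromosome 15. Its heights were 52518, 17215 and 64742 with ecSE1 and 13362 in vector replicate 2, with no peak in replicate 1. They overlapped those of the other single plasmids, which ran from 15379 to 62782 where a peak was listed. The chromosome 8 site was chosen with these data known, so its place at the top is a description.

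**Figure D4:**
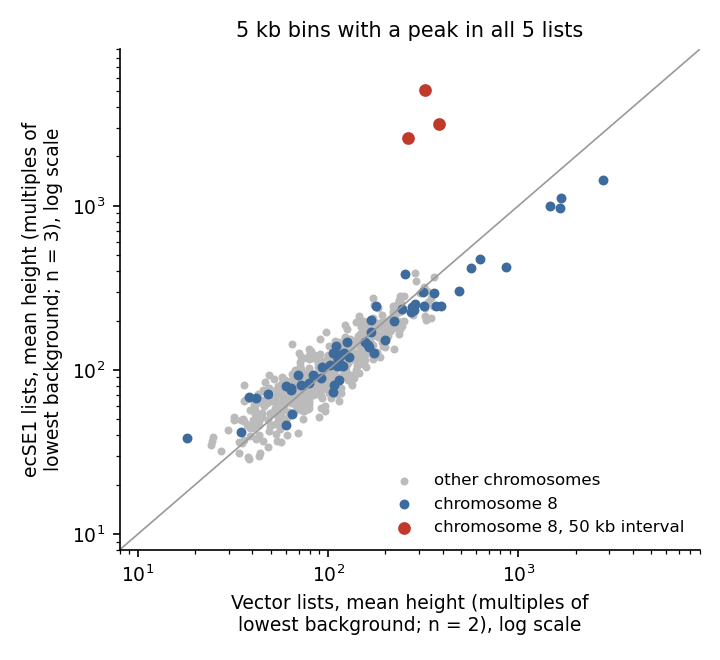
Mean height in the vector lists (x) and in the ecSE1 lists (y), both in multiples of the lowest local background on log scales, for 585 bins of 5 kb with a peak in all 5 lists; the line marks equal values. The 3 bins of the interval lie far above the line, and the 5 tallest bins of the vector lists, all on chromosome 8, lie below it.

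The other tall bins of chromosome 8 did not rise with ecSE1. They were chosen, after values were seen, from the lists of the other single plasmids alone: bins that held 1 of the 10 best peaks in at least 5 of the 8 lists, of which 5 lay on chromosome 8. In 4 of them both vector heights were above all ecSE1 heights, and the vector means were 1.49 to 2.04 times the ecSE1 means. Over LOC105375751, a non-coding RNA gene at 126600001 to 126605000, heights were 1557, 1402 and 1327 with ecSE1 and 2248 and 3311 with the vector. Its other bin, from 126595001, stood at 849, 1191 and 854 against 1764 and 1535. In ADCY8, which encodes an adenylyl cyclase, they were 849, 1539 and 950 against 1737 and 1637. A bin 7400 bp from LINC02055 had 366, 516 and 395 against 987 and 746. The bin that overlapped, at 130655001 to 130660000, had 855, 1238 and 881 against 1757 and 1197. The 8 libraries of other single plasmids lay above the ecSE1 range in the first of these bins (1585 to 2448) and in the LINC02055 bin (574 to 865). They overlapped the ecSE1 range in the other 3 bins, with 1166 to 1538 in ADCY8. The bins were chosen for tall peaks in these 8 lists, which favours high values there, so this comparison is a description. The combination overlapped the ecSE1 range in all 5, with 502 to 601 in the LINC02055 bin. Of all 63 chromosome 8 bins with a peak in 5 lists, 14 (22.2%) were lower in every ecSE1 library and 8 (12.7%) were higher, the 3 of the block included.

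Chromosome 8 as a whole did not gain peaks. It held 6.35, 6.29 and 5.74% of the best peaks with ecSE1 (6.13% ± 0.332, n = 3) and 6.24 and 6.18% with the vector (6.21% ± 0.0412, n = 2). The groups overlapped (difference -0.0842 points, exact permutation p = 1, two-sided). Of the 100 best peaks, 18, 27 and 20 lay on chromosome 8 with ecSE1 and 28 and 21 with the vector. In windows of 1 Mb, all ecSE1 counts of best peaks were above all vector counts in 14 of 146 windows (9.59%) and below them in 6 (4.11%). The window from 133 to 134 Mb held 19, 19 and 17 best peaks with ecSE1 and 16 and 12 with the vector.

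Peaks added where the vector lists had none were few. Of 42919 bins of 5 kb with a best peak in 1 to 4 of the 5 lists, 50 (0.116%) had one in every ecSE1 list and in neither vector list. In the opposite direction there were 603 (1.4%). The 2 directions are not alike by design, since 3 lists must hold a peak for a gain and 2 for a loss. By rank, every ecSE1 rank was better than every vector rank in 97 of 457 bins (21.2%) with a best peak in all 3 ecSE1 lists, and the opposite held in 877 of 1837 (47.7%) with one in both vector lists. Fisher's exact test with 3 libraries against 2 cannot go below 0.1, so no bin could be called. The 50 gained bins were not tall: their mean ecSE1 heights ran from 35.7 to 297, median 71.0. None lay in the 50 kb interval, where the vector already had peaks. In 32 of the 50 neither deposited vector list had any peak.

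On chromosome 8 there were 6 gained bins, 12% of the 50 against 5.60% of the bins tested. Some lay in LOC100996662 (144705001 to 144710000, ranks 1602, 1806 and 371), in the pseudogene ZNF252P, in CSMD3, a gene for a large membrane protein, and in LOC105375776. Others overlapped no gene, and their nearest entries were the pseudogenes CARS1P2, 171653 bp away, and SUMO2P20, 17362 bp away. Chromosome 19 held 8 gained bins, 16% against 2.55% of those tested. Of these, 5 overlapped zinc-finger genes: ZNF676, ZNF823 in adjoining bins, ZNF878 and ZNF493, of which ZNF676 and ZNF493 are named after their values were seen. The adjoining ZNF823 bins held the same peak in ecSE1 replicates 1 and 2 (ranks 537 and 1800), so they are not separate sites. That peak covered 9 bp of the lower bin in ecSE1 replicate 2, where vector replicate 1 had 877 bp under peaks past the cut. The ZNF493 bin had 5 bp in ecSE1 replicate 2 and 349 bp, past the cut, in vector replicate 1. Zinc-finger genes were overlapped by 44.7% of the 1095 chromosome 19 bins tested and by 2.01% of all bins tested, against 5 of 8 and 5 of 50 (10%) gained ones. The difference was not tested, and these peaks were present in some other lists too. ZNF878 and ZNF493 had a best peak in all 3 combination lists, and in 8 and 4 of the 8 lists of other single plasmids. Elsewhere, the largest rank gains among bins with a best peak in all 3 ecSE1 lists were at sites that at least 1 vector list also held. A bin 115616 bp from LOC101928735 on chromosome 12 ranked 32, 30 and 148 with ecSE1 and 2662 in vector replicate 2, and its heights were 202, 189 and 161 against 118. A bin 20195 bp from PLA2G12B on chromosome 10 ranked 115, 71 and 306 against 3192 and 2837, with heights of 263, 262 and 225 against 155 and 193. The bin in LOC105374786 came next (ranks 182, 70 and 273 against 2253 and 7121). These differences in height were far smaller than that of the block. Among bins with no best vector peak, the largest rank ratios were in LINC03043 on chromosome 7 (ranks 846, 1935 and 1286), MYO16, a myosin gene on chromosome 13, and LOC107985287 on chromosome 19 (ranks 329, 149 and 2067). Of the 50 gained bins, 7 had no best peak in any of the 11 other PC3 DM libraries. Among these 7 were the bin in CSMD3 and that in RNF150, a ring-finger gene on chromosome 4 (ranks 2895, 1158 and 1486). The largest rank losses, counted among all bins with a best peak in both vector lists, lay near the pseudogene LOC107986378 on chromosome 5 (no best peak with ecSE1), and in ZNF266, PRKCZ, SBF2 and NFIA-AS2. ZNF266, a zinc-finger gene on chromosome 19, ranked 189 and 84 with the vector and 4596 in ecSE1 replicate 2 alone.

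The gained bins were looked up in the 11 libraries that had no part in choosing them. The combination libraries had a best peak in 40, 42 and 36% of the 50, and the 8 libraries of other single plasmids in 16 to 38%. The difference of the means was 13.6 points (exact permutation p = 0.0242, two-sided, 3 libraries against 8). It was 13.3 points (exact permutation p = 0.0889) without combination replicate 1 and 12.3 points (exact permutation p = 0.0889) without replicate 2, and both leave the threshold. Without replicate 3 it was 15.3 points (exact permutation p = 0.0444). Off chromosome 8 it was 12.7 points (exact permutation p = 0.0606). ecSE6 replicate 1, at 38%, lay inside the combination range. Of the 603 lost bins, the combination libraries had a best peak in 24.2, 33.2 and 31.2%. The 8 libraries of other single plasmids had one in 19.4 to 38.1% of those, with ecSE6 replicate 1 at 38.1%. How far a library's general share of recurrent peaks enters the difference at gained bins was not tested.

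**Figure D5:**
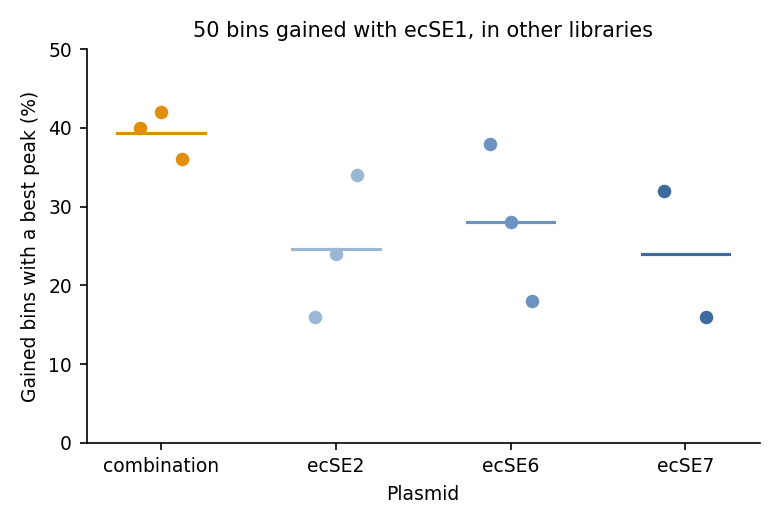
Percentage of the 50 bins gained with ecSE1 that held a best peak in each library of the combination and of the other single plasmids; points are libraries and bars are group means. The combination libraries stand at 36 to 42% and the others at 16 to 38%, with ecSE6 replicate 1 level with the combination.

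A comparison with more libraries gave no called bin. With ecSE1 (3) against the 10 lists of the vector, ecSE2, ecSE6 and ecSE7, 0 of 9101 bins (0%) passed Fisher's exact test at an adjusted p of 0.05. The smallest adjusted p was 0.988, and 101 bins had an unadjusted p under 0.05. The smallest p of that design is 0.0035, and 637 bins would have had to reach it for any to pass, while 14 (0.154%) were completely separated. The presence of a peak does not capture the block, since lists of other plasmids had best peaks there too.

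Over protein-coding genes with 2 kb on each side, 56 of 5102 tested (1.1%) had a best peak in every ecSE1 list and in neither vector list, and 106 (2.08%) had the opposite. The 12 gained genes with the best ranks were RIN2, COL4A4, EGFLAM, CCBE1, NMNAT3, FGF10, ZNF823, UBR4, SMC1B, GRIN3A, SNTB1 and PLPP4. COL4A4 encodes a basement membrane collagen and FGF10 a growth factor. GRIN3A encodes a glutamate receptor subunit and SMC1B a meiotic cohesin subunit. RIN2 had peaks of rank 1641, 3181 and 1041 with ecSE1, and FGF10 of rank 690, 1455 and 5374. Many gained genes are long: their median length was 199.6 kb, against 24.2 kb over all 19974 protein-coding genes and 106.6 kb for the lost ones. The part of gene length in these counts was not tested. Of the 12, UBR4 alone had no peak in either deposited vector list. The 6 lost genes with the best vector ranks were HMGN5, GLB1, SGPP1, RAB10, DIS3L2 and ASIC5.

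Gene lists chosen for the mark and the line held few gained genes. Of 250 zinc-finger genes on chromosome 19, 153 could be tested. ZNF823 and ZNF878 gained and ZNF792, ZNF729 and ZNF490 lost a best peak. The share of this list with a best peak was 45.6% ± 2.62 with ecSE1 and 54.0% ± 9.05 with the vector, against 11.6% ± 0.247 and 10.6% ± 0.673 of all protein-coding genes. Among 18 protein-coding genes of distal 8q24, the band that holds the block, none gained and HHLA1 lost a best peak, with shares of 40.7% ± 3.21 and 47.2% ± 3.93. No gene gained or lost in the lists of the MYC locus, imprinted genes, prostate identity genes, intestinal and endocrine genes, neuroendocrine genes, mesenchymal genes, housekeeping genes, heterochromatin factors, clustered protocadherins and olfactory receptors. Shares of some of these lists were higher with ecSE1. Of 12 neuroendocrine genes 11.1% ± 4.81 had a best peak with ecSE1 (8.33 to 16.7%) and 0% in both vector lists. These were 4 genes in all, none of them in every ecSE1 list. The ecSE1 share was near the 11.6% of all protein-coding genes, so it is not a result about this list. Of 53 clustered protocadherins the share was 17.6% ± 14.4 with ecSE1 (1.89 to 30.2%) and 8.49% ± 6.67 with the vector, with overlap. Housekeeping genes had a best peak in none of the 5 lists. Of the 13 prostate identity genes 7.69% ± 7.69 had one with ecSE1 and 7.69% ± 0 with the vector. At promoters, taken as the 300 bases around each RefSeq start, 0 of 161 tested (0%) gained and 1 (0.621%) lost a best peak.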

How the data were processed

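The build was hg38 and the tools were MACS2 2.2.7.1, Bowtie2 2.3.5, Trim Galore 0.6.6, bedtools and SAMtools, per the submitters' processing notes, which give no order. Each deposited peak list belongs to 1 library, and its name states an FDR of 0.001. The lists give the authors' fold ratio of summit to local background, and the authors' -log10 p-value and -log10 q-value of each peak. The authors' display score was not used. Read totals were not used, so depth is unknown.

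The 10288 best peaks by q-value, then fold, were compared in 5 kb bins (any overlap), genes with 2 kb flanks (RefSeq, GRCh38.p14, no exons) and rings. Whole numbers of summit fragments were worked back from the deposited fold and p-value (100% of peaks, tolerance 0.005 in -log10 p). Dividing them by the lowest local background of the list gives height, which assumes that this background follows depth. Tests were exact permutation over libraries and Fisher's exact test with Benjamini-Hochberg adjustment over all tested bins, tested on simulated data. The members, the interval and the gene lists were chosen with earlier results of these data known. Named bins were those with the largest rank ratio, named genes those with the best ranks, plus fixed neighbours. Heights, the block limit and the tall chromosome 8 bins were added after the values were seen. Alternatives were list length, q-value, ranking by fold, bin size, overlap, and each replicate left out. Correlation of same-numbered libraries was -0.00382 over 903 bins, so no pairing by number was seen, though none is excluded. The 18 lists of the other line were not used. The software was scipy 1.17.1, pandas 2.3.3, numpy 2.4.6 and matplotlib 3.10.9 under Python 3.11.15.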

Additional observations from a re-analysis of the deposited data

How the results depend on the processing

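Of 93 alternative values, 51 kept direction and side of the threshold, 26 moved, 9 reversed, 6 lost and 1 gained a call. For some of the 51 the side of the threshold was fixed in advance. With 3 libraries against 2, no p under 0.2 can arise, and the main Fisher comparison against 10 lists needed 637 bins at its smallest p. The count of 51 is therefore not a measure of how firm those results are. Among the 51 is the interval's rank difference by fold, which fell to -0.0012 (exact permutation p = 1). Its direction has no meaning, since the cut left a peak of the interval in ecSE1 replicate 2 alone. The log10 number of peaks differed by -0.241 to 0.243 with 1 library left out. The chromosome 8 share turned positive, at 0.0786 points with deposited lists, 0.123 with -log10 q of at least 5 and 0.215 with ranking by fold, and ran from -0.194 to 0.107 with 1 library left out. The log10 rank difference in the interval was -1.86 against 10 lists. Gained bins numbered 268 with deposited lists, 6 with the 1000 best peaks, 83 with -log10 q of at least 5, 1 with an overlap of 500 bp and 76 to 421 with 1 library left out. Lost bins numbered 2143, 49, 1082 and 55 in the same order, and 706 to 7942 with 1 library left out. Gained genes numbered 102 with deposited lists, 4 with the 1000 best, 0 with an overlap of 500 bp and 148 to 210 with 1 library left out. With the 100 best peaks, and the combination joined to ecSE1, 1 bin was called against the 10 lists (added after seeing the data). The combination difference was 17.5 points with deposited lists (exact permutation p = 0.121), 19.2 with the 1000 best (exact permutation p = 0.182), 12.7 off and 20.1 on chromosome 8, and 12.3 to 15.3 with 1 combination library left out. Covered length around the site differed by -418 bp within 500 kb, and by -2083 to 3360 bp with 1 library left out. With a replicate block on numbers 1 and 2, for which no pairing was seen, the chromosome 8 share differed by 0.107 points, and 360 bins and 177 genes were gained. Presence counts thus move with list length and libraries. Depth is unknown, so small differences cannot be judged.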

Other observations

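The best peak of 14 of the 16 PC3 DM lists lay over the end of RNU6-1, a U6 small nuclear RNA gene on chromosome 15 (67839939 to 67840045 on hg38). U6 promoters are widely used to express guide RNAs. Its height was 52518, 17215 and 64742 in the ecSE1 libraries and 13362 in vector replicate 2. It was 15379 to 62782 in the 7 libraries of other single plasmids that held it, and 67536, 8236 and 12860 in the combination, so the ecSE1 values lay inside the range of the others. Vector replicate 1 and ecSE6 replicate 1 had no peak there. Whether plasmid DNA adds fragments there or at other sites was not tested. The chromosome 8 summit ranked next after it in every ecSE1 list.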
